A study of Macaca mulatta with 12 samples.

Results

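The FOS and JUN family comprised FOS, FOSB, FOSL1, FOSL2, JUN, JUNB, JUND and ATF3, which encode the transcription factor AP-1 and a close relative. Every probe set other than a control whose gene symbol was exactly one of these names was taken, which gave 15 probe sets of 8 genes among 22215 probe sets and 11963 genes. Rhesus macaques had been deprived of vision in a single eye, and total RNA of each geniculate layer had been hybridised to a human expression array. The geniculate nucleus relays retinal signals to the visual cortex in 6 layers, each driven by 1 eye, and the ipsilateral and the contralateral nucleus gave 12 arrays in all. The deprived group held ipsilateral layers 2, 3 and 5 and contralateral layers 1, 4 and 6 (6 samples), and the non-deprived group held ipsilateral layers 1, 4 and 6 and contralateral layers 2, 3 and 5 (6 samples). Both groups came from deprived animals, so the non-deprived layers were those driven by the other eye and not layers of a normally reared animal. The cell classes came from the standard anatomy of the macaque nucleus and not from a label, with layers 1 and 2 magnocellular (4 arrays) and the other layers parvocellular (8 arrays). The sources used here do not give the age, sex or number of the animals, the way or length of deprivation, or which samples shared an animal. The errors below thus measure how layers and sides differed, technical spread included, and any p-value is too small for a statement on animals wherever samples shared one.

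AP-1 is a dimer of proteins with a basic leucine zipper. JUN, JUNB and JUND can pair among themselves, whereas FOS, FOSB, FOSL1 and FOSL2 need a JUN partner to bind DNA. In neurons FOS, FOSB and JUNB are immediate early genes, switched on within minutes by calcium entry and kinase signalling after synaptic activity, and FOS in particular is used as a marker of recently active neurons, in the visual pathway included. JUN is also switched on after axon injury and loss of trophic support, through the JUN N-terminal kinases, and ATF3 is a well known marker of injured neurons. JUND is present at a steady level in many tissues.

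Of the listed relay neuron markers, SLC17A6, the vesicular glutamate transporter of thalamic relay neurons, had intensities of 24556.3 to 42637.8 on all 12 arrays. TCF7L2, a transcription factor of the thalamus, had 59388.1 to 79018.9. PRKCD, of the same list, averaged 104 and was at the floor, defined below, on 8 of 12 arrays. The 4 markers of cortical excitatory neurons, listed as absent from the geniculate, averaged 593 (TBR1) to 1063 (SLC17A7). Which cells gave these values was not tested. The 2%-trimmed means lay between 1500.45 and 1500.6, while the medians lay between 411.5 and 666.5, with 586 ± 83.4 on ipsilateral and 468 ± 39.7 on contralateral arrays (SD, n = 6 each, two-sided exact permutation test, p = 0.0195). The array of deprived layer 2 stood apart, with a mean correlation to the others of 0.889, and it held 6.28% of values at the floor. The GAPDH 3'/5' control ratio, a measure of how far the RNA had been shortened, was 9.38 on deprived layer 2 and 10.996 on deprived layer 5, against 2.21 to 5.65 on the other arrays. The ACTB ratio was 46.4 ± 15.1 on magnocellular arrays (SD, n = 4) and 25.7 ± 8.78 on parvocellular arrays (SD, n = 8, two-sided exact permutation test, p = 0.0162).

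The family divided into probe sets well above the low end of the array and probe sets close to it. Values below an intensity of 111, the 20th percentile over all probe sets and arrays, were treated as a floor, and 7 of the 15 probe sets had a mean over the 12 arrays under 2 times that floor, or 222. FOSB and FOSL1 were represented by such probe sets alone. FOSB 202768_at averaged 99.6 and was at the floor on 7 of 12 arrays, and FOSL1 204420_at averaged 109 and was also at the floor on 7. FOSL2 205409_at (mean 214) and 218881_s_at (mean 120), JUN 201465_s_at (mean 163), and JUND 203751_x_at (mean 119) and 214326_x_at (mean 134) were the other 5. These 7 were left out of the tests, none of them passed in a fit without the filter (lowest adjusted p 0.184, limma, FOSB between hemispheres). For FOSB and FOSL1, scarce RNA and poor binding of macaque RNA by the human probes cannot be told apart. JUND, JUN and FOSL2 each had another probe set above the low end, with means of 20707 for JUND 203752_s_at, 6171 for JUN 201464_x_at and 625 for FOSL2 218880_at.

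The remaining 8 probe sets covered FOS, FOSL2, JUN (3 probe sets), JUNB, JUND and ATF3. Of these, 7 had a mean log2 value at or above the median of all probe sets, an intensity of 483.1, and were tested. FOSL2 218880_at lay just inside that limit, 0.08 above it on the log2 scale, and FOS 209189_at lay just outside, 0.18 below it, while JUN 213281_at lay 0.15 above it. FOS averaged 584 and reached 1592.4 but has a p only from the fit without the filter. JUN 201464_x_at, whose suffix marks probes that may also bind other transcripts, and probe sets ending in _s_at, which several transcripts can share, are named with their suffix. The exception is ATF3, whose only probe set was 202672_s_at.

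**Figure D1:**
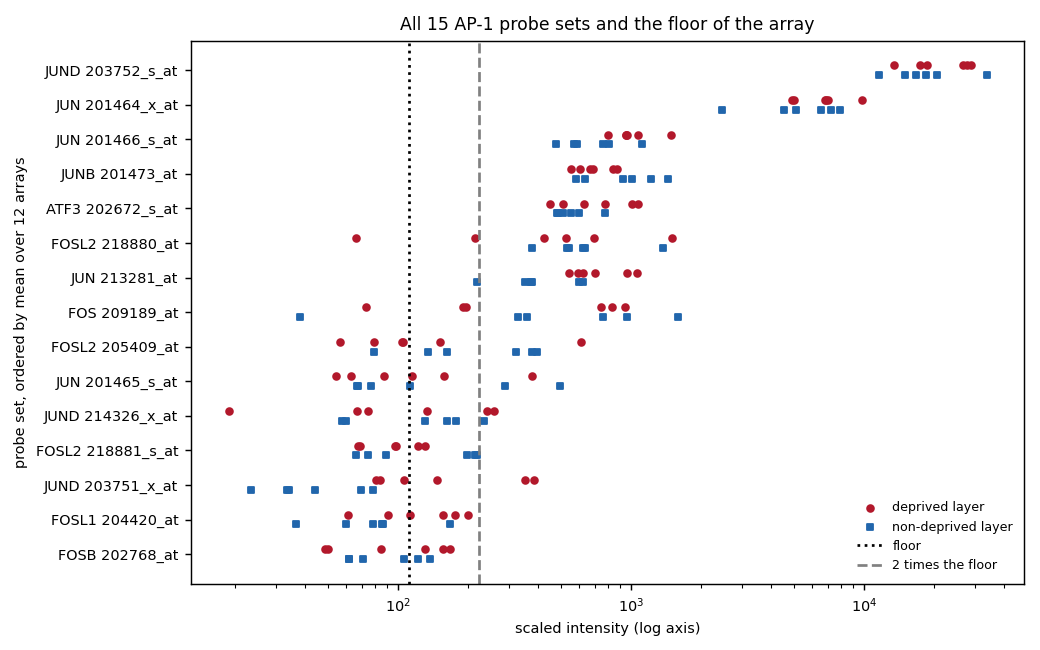
Scaled intensity (log axis) of all 15 FOS and JUN family probe sets on the 12 arrays, ordered by mean, with deprived layers as red circles and non-deprived layers as blue squares. The dotted line is the floor of 111 and the dashed line 2 times the floor; the 7 lowest probe sets, among them FOSB and FOSL1, average below the dashed line.

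FOS differed more from sample to sample than almost any other probe set. The SD of its log2 value over the 12 arrays was 1.31, above that of 99.9% of all probe sets, and FOSL2 218880_at had an SD of 1.02, above that of 98.0%. The other 6 probe sets above the low end had SDs of 0.42 to 0.64, which stood at the 42.7th to the 73.7th percentile. The highest value was 14.3 times the lowest for FOS and 13.5 times for FOSL2 218880_at with low values raised to the floor, against 2.91 times for JUND 203752_s_at and 2.38 times for ATF3.

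The first question was whether the deprived layers differed from the non-deprived layers. No family member passed the test, but the 3 JUN probe sets above the low end were higher on average in deprived layers and JUNB, FOSL2 and FOS were lower. JUN 213281_at came closest, at 1.81 times the non-deprived level and higher in deprived layers in 6 of 6 layers. In the limma fit with deprivation, cell class and hemisphere as terms, 7 of 11108 probe sets passed at an adjusted p under 0.05 (0.063%), none of them a family member. That count was 0 to 43 without single arrays, highest without non-deprived layer 6, and again no family member passed. At an unadjusted p under 0.05 the counts were 2 of 7 family probe sets, JUN 201466_s_at and JUN 213281_at, and 1332 of all (12%). Here and in the comparisons below, 3 of the 7 probe sets read JUN, so the counts are not of separate genes. The median difference of the 7 was 0.31 on the log2 scale and 5 of 7 were above 0, against a median of 0.03 and 53.7% above 0 over all probe sets tested.

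JUN, the founding member of AP-1 and its main activating JUN subunit, was read by 3 tested probe sets. JUN 213281_at had intensities of 624.9, 592.7, 542.5, 957.6, 702.7 and 1062.9 in deprived layers 1 to 6, against 219.1, 372.1, 351.4, 376.1, 597.6 and 624.4 in non-deprived layers 1 to 6. The deprived sample was the higher of the pair in every layer, and the groups overlapped because non-deprived layers 5 and 6 exceeded deprived layers 2 and 3. The means were 747 ± 213 in deprived and 423 ± 157 in non-deprived layers (SD, n = 6 each). The log2 difference was 0.86 ± 0.26 (SE, 95% interval 0.31 to 1.41), with an unadjusted p of 0.00444 and an adjusted p of 0.207 in limma. This probe set passed the filter of 483.1 through the deprived layers, with geometric means of 724 in deprived and 399 in non-deprived layers, and without the filter its adjusted p was 0.344. It was 0.79 without the array of deprived layer 2, which stood apart (adjusted p = 0.338, against 0.084 to 0.686 over all alternatives). None of the 7 tested probe sets separated the groups without overlap, which 0.684% of all probe sets did. A difference above 0 in 6 of 6 layers was seen in 2.74% of all probe sets tested.

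JUN 201466_s_at had 1485.7, 950.1, 797, 965.2, 952.7 and 1072.5 in deprived layers 1 to 6, against 586.4, 477.2, 756.8, 808.3, 567.4 and 1111.9 in non-deprived layers. Only layer 6 ran the other way, and the groups overlapped through non-deprived layers 4 and 6. The means were 1037 ± 237 in deprived and 718 ± 229 in non-deprived layers (SD, n = 6 each), a log2 difference of 0.56 ± 0.24 (SE, 95% interval 0.06 to 1.06, limma, adjusted p = 0.357). At least 5 of 6 layers were higher in 12.9% of all probe sets.

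JUN 201464_x_at had 4992.3, 4900.2, 6876, 6985.4, 9756.6 and 6785.2 in deprived layers, against 5118.4, 2465, 6553.8, 4552.6, 7202.7 and 7864.6 in non-deprived layers. The groups overlapped widely, and the deprived sample was higher in 4 of 6 layers (38.3% of all probe sets had at least 4). Its log2 difference was 0.31 ± 0.19 (SE, 95% interval -0.09 to 0.71, limma, adjusted p = 0.555). It was 0.16 without non-deprived layer 2, 0.18 without non-deprived layer 4 and 0.17 with median centring. The JUN probe set near the floor, 201465_s_at, ran to no side, with 54.1 to 374.4 in deprived and 67 to 494.8 in non-deprived layers.

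JUNB, an immediate early JUN protein that can restrain JUN, ran the other way from JUN 213281_at in layers 1 to 4. JUNB 201473_at had 668.9, 554.5, 834, 607, 873.8 and 684.2 in deprived layers 1 to 6, against 1446.5, 925.6, 1012.1, 1214.1, 636.7 and 579.6 in non-deprived layers. The deprived sample was lower in layers 1 to 4 and higher in layers 5 and 6, and the groups overlapped. The means were 704 ± 126 and 969 ± 333 (deprived and non-deprived, SD, n = 6 each), and the log2 difference was -0.41 ± 0.24 (SE, 95% interval -0.92 to 0.11, limma, adjusted p = 0.543), or -0.26 without deprived layer 2. At least 4 of 6 layers were lower in 31.7% of all probe sets.

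JUND, the steadily present JUN protein, had the highest readings of the family, which does not rank it among genes because probe sets bind differently. JUND 203752_s_at had 13514.9 to 28707.6 in deprived layers (median 22591) and 11543.2 to 33555.9 in non-deprived layers (median 17600). Deprived samples were higher in layers 2, 3 and 5, all ipsilateral, and lower in layers 1, 4 and 6, all contralateral. The log2 difference was 0.22 ± 0.19 (SE, 95% interval -0.18 to 0.62, limma, adjusted p = 0.706). It was 0.11, 0.12 and 0.14 without deprived layer 4, deprived layer 1 and non-deprived layer 6, and 0.36 and 0.34 without deprived layer 2 and non-deprived layer 4. It was 0.08 with median centring and 0.42 without both arrays of high GAPDH ratio. JUND 203751_x_at, near the floor, was at the floor in all 6 non-deprived samples (23.5 to 78.2) and above it in deprived layers 3, 4 and 5 (383.4, 147.4 and 349.5), while JUND 214326_x_at had 18.8 to 258.1 in deprived and 57.7 to 233.6 in non-deprived layers.

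FOS, the most widely used marker of neuronal activity in the family, had 72.9, 190.9, 741.7, 828.5, 195.3 and 943.9 in deprived layers 1 to 6, against 38, 358, 326.6, 964.7, 755.3 and 1592.4 in non-deprived layers. Both layer 1 values were below the floor. Of the other 5 layers, the deprived sample was lower in layers 2, 4, 5 and 6 and higher in layer 3, and the groups overlapped across nearly their whole range. The deprived mean was 496 ± 383 and the non-deprived mean 673 ± 558 (SD, n = 6 each), and the difference of the mean log2 values was -0.44. That size rested on single arrays, as it was -0.09 without deprived layer 5, -0.19 without non-deprived layer 6, -0.22 without non-deprived layer 2 and -0.75 without non-deprived layer 3. It was -0.12 without both arrays of high GAPDH ratio and -0.18 with that ratio as a covariate. FOS was below the filter, and a fit without the filter gave it an adjusted p of 0.818 with a standard error of 0.54.

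FOSL2, a FOS relative without the strong activating domain of FOS, had 66.2, 214, 425.3, 525.8, 1500.5 and 693.5 on probe set 218880_at in deprived layers 1 to 6, against 533.2, 375.1, 620, 1376.8, 540.6 and 634.4 in non-deprived layers. Deprived samples were lower in layers 1 to 4 and higher in layers 5 and 6, the same layers as for JUNB, and the groups overlapped. The log2 difference was -0.57 ± 0.35 (SE, 95% interval -1.32 to 0.18, limma, adjusted p = 0.563). FOSL2 218880_at passed the filter of 483.1 through the non-deprived layers, with geometric means of 420 in deprived and 623 in non-deprived layers. Without the filter its adjusted p in limma was 0.729. Near the floor, FOSL2 205409_at had 56.3 to 608.2 in deprived and 78.7 to 395.3 in non-deprived layers, and 218881_s_at had 67.6 to 130.4 in deprived and 65.8 to 218 in non-deprived layers.

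FOSB had 48.4 to 167.6 in deprived and 61.5 to 136.7 in non-deprived layers, and FOSL1 had 60.9 to 198.9 in deprived and 36.4 to 167.6 in non-deprived layers. No order of the layers can be read from these values, most of which were at the floor. ATF3, the stress-induced member, had 448.5, 628.9, 1005.2, 510.6, 1068.1 and 771.8 in deprived layers 1 to 6, against 484, 479, 511.6, 775.7, 597.4 and 551.2 in non-deprived layers. The highest 2 values were deprived layers 3 and 5, and 4 of 6 layers were higher in the deprived sample, with overlap between the groups. Its log2 difference was 0.33 ± 0.22 (SE, 95% interval -0.14 to 0.80, limma, adjusted p = 0.600).

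**Figure D2:**
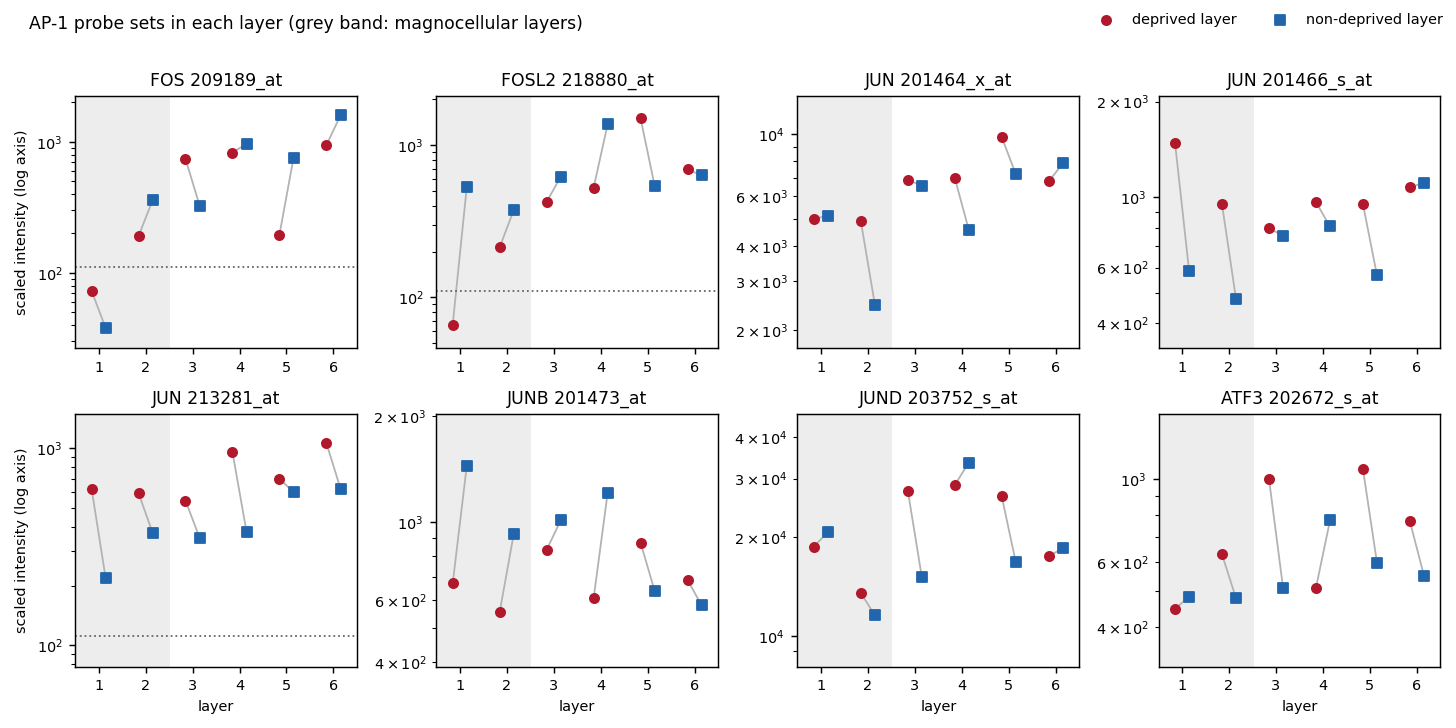
Scaled intensity (log axis) of the 8 probe sets above the low end of the array, by layer, with the deprived sample (red circle) left of the non-deprived sample (blue square) and a grey line joining them; the grey band marks the magnocellular layers and the dotted line the floor of 111. JUN 213281_at is higher in the deprived sample of all 6 layers, whereas JUNB and FOSL2 218880_at are lower in the deprived sample of layers 1 to 4.

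Several lists of cell type markers lay to one side in the same comparison. All tested markers of oligodendrocytes (5), astrocytes (4), microglia (4) and endothelium (4) had a log2 difference above 0 between deprived and non-deprived layers, and 5 of 6 relay neuron markers had one below 0, with none passing the test. Some were near 0, such as PECAM1 (0.05), and 53.7% of all probe sets tested were above 0. Of these lists' markers below the filter, AQP4, C1QB and AIF1 averaged higher in deprived layers. VWF, of endothelium, averaged 308 in deprived and 430 in non-deprived layers. Of 4 genes listed as interneuron markers, GAD1 (0.32), GAD2 (0.42) and CALB1 (0.36) were above 0 and PVALB was at -0.51 (limma, adjusted p = 0.223). Which cells carried PVALB and CALB1 here was not tested. Cortical excitatory markers were above 0 for 3 of 4, with SLC17A7 at -0.21. The summed oligodendrocyte markers were 58807.9 to 141953 in deprived and 56188.4 to 99703.7 in non-deprived layers, and the summed relay markers 175817 to 256860 in deprived and 220974 to 305052 in non-deprived layers. The summed microglia markers were 13788.7 and 14564.2 on deprived layers 3 and 5, the arrays where ATF3 was highest, against 6355.4 to 9083.9 on the other arrays. The part of these markers in the JUN, JUNB and ATF3 values was not tested. In such bulk samples, fewer cells of a type and less RNA per cell cannot be told apart. Median centring of the arrays moved the median difference of all probe sets by -0.14. With it and with quantile normalization, 5 of 7 tested family probe sets stayed above 0.

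Magnocellular layers, with large relay neurons that respond to motion and low contrast, were then compared with parvocellular layers, which carry colour and fine detail. Family members were lower in magnocellular layers on 6 of the 7 tested probe sets, with a median log2 difference of -0.50 against -0.07 over all probe sets tested, of which 41.5% were above 0. Among these 6, FOSL2 218880_at and JUN 213281_at passed the filter through the parvocellular layers. None passed the test, while 80 of 11108 probe sets did (0.72%), 33 higher and 47 lower in magnocellular layers, and 17 to 188 did without single arrays (17 without deprived layer 1, 188 without non-deprived layer 6). FOSL2 and the untested FOS were the furthest apart, at 0.367 and 0.252 times the parvocellular level with low values raised to the floor. At an unadjusted p under 0.05 the counts were 3 of 7 family probe sets and 1620 of all (14.6%) in limma.

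FOS had 72.9 and 38 in layer 1 and 190.9 and 358 in layer 2 (deprived, then non-deprived), against 195.3 to 1592.4 in the 8 parvocellular samples (median 791.9). The layer 1 pair was below every other sample, and the highest magnocellular value, non-deprived layer 2, exceeded only non-deprived layer 3 and deprived layer 5 among the parvocellular samples. The means were 165 ± 144 in magnocellular (SD, n = 4) and 794 ± 426 in parvocellular layers (SD, n = 8). With the 2 low values raised to the floor, the difference of mean log2 values was -1.99. It was -1.99 among deprived layers and -1.98 among non-deprived layers, and -2.24 on the ipsilateral and -1.73 on the contralateral side. The fit without the filter gave FOS an unadjusted p of 0.00652 and an adjusted p of 0.288.

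By layer, the mean of both FOS values was 55.5 in layer 1, 274 in layer 2, 534 in layer 3, 897 in layer 4, 475 in layer 5 and 1268 in layer 6. Layer 1 lay below all other layers with no overlap. The value pairs of layers 2, 3 and 5 overlapped, those of layers 4 and 6 overlapped, and layer 4 lay above both samples of layers 2, 3 and 5.

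FOSL2 218880_at had 66.2 and 533.2 in layer 1 and 214 and 375.1 in layer 2 (deprived, then non-deprived), against 425.3 to 1500.5 in parvocellular layers (median 627.2). Deprived layers 1 and 2 were the lowest of the 12 samples, and non-deprived layer 1 lay within the parvocellular range. The means were 297 ± 202 in magnocellular (SD, n = 4) and 790 ± 410 in parvocellular layers (SD, n = 8), and the log2 difference was -1.44 ± 0.38 (SE, 95% interval -2.24 to -0.65, limma, adjusted p = 0.0996). The probe set passed the filter of 483.1 through the parvocellular layers, with geometric means of 263 in magnocellular and 715 in parvocellular layers, and without the filter its adjusted p was 0.282. It passed in 2 of 23 alternative fits, with the GAPDH ratio as a covariate (-1.70, adjusted p = 0.0397) and without non-deprived layer 6 (-1.58, adjusted p = 0.0472), over a range of adjusted p from 0.0397 to 0.9998. It was -1.31 without deprived layer 2 and -0.72 in non-deprived layers alone. The FOSL2 probe sets near the floor did not repeat its size, with untested differences of -0.31 for 205409_at and 0.37 for 218881_s_at.

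The JUN probe sets differed in this comparison. JUN 201464_x_at had 4992.3 and 5118.4 in layer 1 and 4900.2 and 2465 in layer 2 (deprived, then non-deprived), against 4552.6 to 9756.6 in parvocellular layers (median 6930.7). All 4 magnocellular values were below 7 of the 8 parvocellular values, the exception being non-deprived layer 4. The means were 4369 ± 1272 in magnocellular (SD, n = 4) and 7072 ± 1444 in parvocellular layers (SD, n = 8), a log2 difference of -0.73 ± 0.20 (SE, 95% interval -1.15 to -0.30, limma, adjusted p = 0.128). JUN 213281_at gave -0.55 ± 0.28 (SE, adjusted p = 0.379) and JUN 201466_s_at gave -0.12 ± 0.25 (SE, 95% interval -0.65 to 0.41, adjusted p = 0.872). JUN 213281_at passed the filter of 483.1 through the parvocellular layers, with geometric means of 417 in magnocellular and 610 in parvocellular layers. Without the filter its adjusted p in limma was 0.489. Deprived layer 1, at 1485.7, was the highest of all 12 samples on JUN 201466_s_at, and without it the difference there was -0.40.

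JUND 203752_s_at averaged 16100 ± 4279 in magnocellular (SD, n = 4) and 23010 ± 6880 in parvocellular layers (SD, n = 8), with overlap and a log2 difference of -0.50 ± 0.20 (SE, 95% interval -0.92 to -0.07, limma, adjusted p = 0.277), or -0.28 without deprived layer 2. ATF3 averaged 510 ± 80.7 in magnocellular and 724 ± 220 in parvocellular layers, a log2 difference of -0.46 ± 0.24 (SE, adjusted p = 0.387). JUNB was the exception, with 899 ± 397 in magnocellular and 805 ± 223 in parvocellular layers and a log2 difference of 0.11 ± 0.26 (SE, 95% interval -0.44 to 0.65, adjusted p = 0.893). FOSB and FOSL1 averaged 103 and 106 in magnocellular and 98.1 and 111 in parvocellular layers, all at about the floor.

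**Figure D3:**
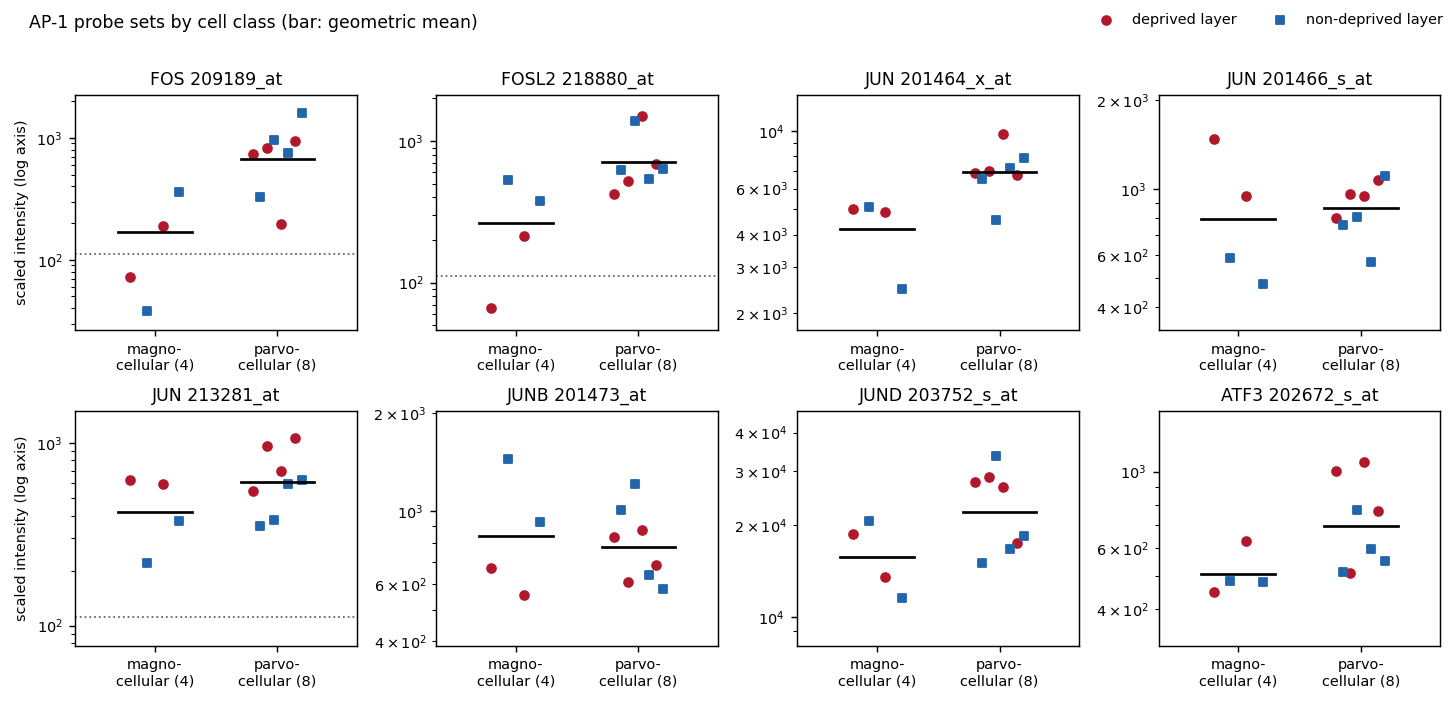
Scaled intensity (log axis) of the same 8 probe sets in 4 magnocellular (left) and 8 parvocellular samples (right), with deprived layers as red circles, non-deprived layers as blue squares, black bars at the geometric mean with low values raised to the floor, and the floor of 111 as a dotted line. FOS and FOSL2 218880_at are furthest apart, and no probe set separates the classes without overlap.

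None of the 7 tested probe sets separated the cell classes without overlap, which 1.5% of all probe sets did. The oligodendrocyte markers were lower in magnocellular layers for 4 of 5 genes, and MBP (-0.64, adjusted p = 0.0334) and MAG (-1.26, adjusted p = 0.018) passed the limma test. Their summed level was 56188.4 to 81507.9 in magnocellular and 81382.2 to 141953 in parvocellular layers. The summed relay markers were 255405 to 305052 in magnocellular and 175817 to 242508 in parvocellular layers. Of 6 tested relay markers, 4 were above 0, and RORA (-0.85) and TCF7L2 (-0.05) were below. The neurofilament gene NEFM, at 88360 and 50021 (mean, magnocellular and parvocellular), weighed heavily in that sum and passed (0.83, limma, adjusted p = 0.00295). The ACTB ratio, given above, also differed between the classes, and with it as a covariate the FOSL2 difference was -1.34 (limma, adjusted p = 0.9998). The summed markers of cortical excitatory neurons were 1489.6 to 3035.4 in magnocellular and 1894.2 to 7711.8 in parvocellular layers, the highest on deprived layer 3. The part of the marker levels in the family's values was not tested.

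The third comparison set the ipsilateral against the contralateral side. No family member passed the test, and 12 of 11108 probe sets did (0.108%), 1 higher and 11 lower on the ipsilateral side, and 0 to 851 did without single arrays (0 without deprived layer 1, 851 without non-deprived layer 6). None of the 7 tested family probe sets had an unadjusted p under 0.05, while 2237 of all (20.1%) did. In the limma fit without the filter, unadjusted p was 0.00555 for FOSB, 0.00853 for FOSL1, 0.0224 for JUN 201465_s_at and 0.0446 for ATF3. The lowest adjusted p there was 0.184, for FOSB. JUN 201465_s_at, near the floor, had a log2 difference of -0.96. The family values were above 0 on 6 of 7 tested probe sets, against 57.9% of all probe sets, on 4 with quantile normalization and on 3 with median centring, which moved the median of all probe sets by -0.32. FOSL2 218880_at, above 0, passed the filter through the ipsilateral side, and JUN 213281_at, below 0, through the contralateral side. JUND 203752_s_at was higher on the ipsilateral side in 6 of 6 layers, as were 5.8% of all probe sets, with 23387 ± 7210 on the ipsilateral and 18026 ± 5786 on the contralateral side (SD, n = 6 each) and a log2 difference of 0.37 ± 0.19 (SE, 95% interval -0.03 to 0.77, limma, adjusted p = 0.283). FOSB and FOSL1, near the floor, had 61.5 to 167.6 and 85.6 to 198.9 on the ipsilateral side, against 48.4 to 106.2 and 36.4 to 112.8 on the contralateral side. All 6 contralateral FOSB values and 5 of 6 contralateral FOSL1 values were at the floor, and of all values 17.2% ± 5.87 were there on ipsilateral and 22.8% ± 1.33 on contralateral arrays (SD, n = 6 each, two-sided exact permutation test, p = 0.0173).

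**Figure D4:**
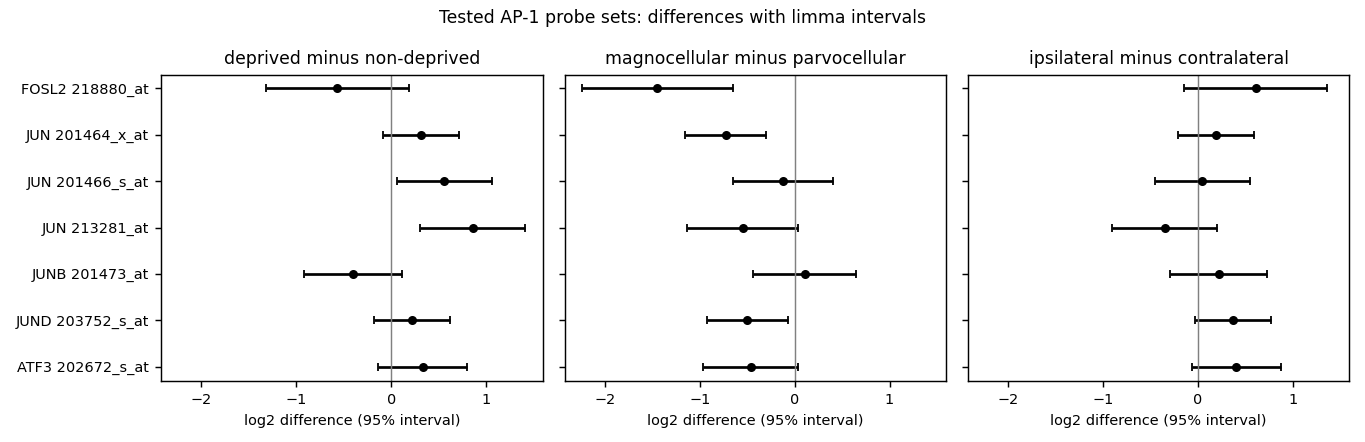
Log2 differences with 95% intervals from limma for the 7 tested probe sets, in 3 panels from left to right: deprived minus non-deprived, magnocellular minus parvocellular, and ipsilateral minus contralateral. JUN 213281_at (0.86) lies furthest above 0 for deprivation and FOSL2 218880_at (-1.44) furthest below 0 for cell class, and no adjusted p was under 0.05.

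Whether the deprivation difference differed between the cell classes was tested with an interaction term. No probe set of 11108 passed (0%), and 970 had an unadjusted p under 0.05 (8.73%), among them 1 of 7 family probe sets, FOSL2 218880_at. Without deprived layer 1, 208 probe sets passed, with no family member among them. FOSL2 218880_at had a deprivation difference of -1.54 in magnocellular and -0.08 in parvocellular layers, an interaction of -1.45 ± 0.68 (SE, 95% interval -2.90 to -0.01, limma, adjusted p = 0.565). JUN 201466_s_at had 1.17 in magnocellular and 0.26 in parvocellular layers, and JUNB had -0.93 in magnocellular and -0.15 in parvocellular layers, with interactions of 0.91 ± 0.46 (SE, adjusted p = 0.604) and -0.78 ± 0.49 (SE, adjusted p = 0.668). JUN 213281_at was above 0 in both classes, at 1.09 and 0.74 (magnocellular, then parvocellular). Each magnocellular value rests on 2 deprived and 2 non-deprived samples.

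The interaction of deprivation with hemisphere sets layers 2, 3 and 5, driven by the eye of their own side, against layers 1, 4 and 6, driven by the opposite eye, so it cannot be told apart from a difference between those layers. It also passed for no probe set (0%), with 732 at an unadjusted p under 0.05 (6.59%) and none of the 7 family probe sets among them. The family's adjusted p-values ran from 0.786 to 0.994. JUND 203752_s_at came closest, at -0.69 ± 0.35 (SE, 95% interval -1.43 to 0.06).

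Across the 12 arrays the members did not vary as a block. JUN 213281_at and JUNB ran opposite to each other (Pearson r = -0.81, Spearman rho = -0.62). The other JUN probe sets did so less, with r = -0.51 (rho = -0.51) for 201466_s_at and r = -0.30 (rho = -0.35) for 201464_x_at. JUN 213281_at and 201466_s_at ran together (r = 0.61, rho = 0.75), and JUN 201464_x_at had r = 0.43 with 201466_s_at and 0.49 with 213281_at. FOS had its highest r with FOSL2 218880_at (0.44, rho = 0.51), and FOSL2 with ATF3 (0.55, rho = 0.59). These are descriptions over arrays that share layers, sides and scaling, and possibly animals.

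Among 7281 other genes, those with the highest r to a member over the 12 arrays were found for the highest probe set of each gene past the filter. The highest of so many values on 12 arrays are high by selection. For JUN 201464_x_at these were PARP2 (0.90), a DNA repair enzyme, KLF10 (0.87), a zinc finger transcription factor, and PPP2R5A (0.83), a phosphatase subunit. For JUNB they were TOMM40 and CSTPP1 (0.89 each) and MAPK8IP3 (0.87), a scaffold of JUN N-terminal kinase signalling and axonal transport. For JUND they were MKS1 (0.95), MAPK13 (0.89) and IRAK1 (0.88). For ATF3 they were PHF7 (0.95), FAM53B (0.94) and IL17RB (0.93). For FOSL2 218880_at they were CX3CL1 (0.94, rho = 0.75), SLC12A7 (0.93, rho = 0.87) and H1-10 (0.93, rho = 0.76). PARP2, PHF7 and IL17RB were read by probe sets with the suffix _x_at.

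The other genes of the pathway were described by 4 lists. Of all 11108 probe sets tested, 0.063% passed for deprivation, 0.72% for cell class and 0.108% for hemisphere. Of 24 other leucine zipper factors that can partner or compete with AP-1, 16 were tested, and none passed for deprivation (median log2 difference 0.01, against 0.02 over 7286 genes). MAF, a leucine zipper factor that can dimerise with FOS and JUN, rose in magnocellular against parvocellular layers by 0.99 ± 0.21 (SE, limma, adjusted p = 0.032), and no other factor of this list passed for cell class (median -0.01, against -0.06 over all genes). Of 24 kinases and promoter factors upstream of FOS and JUN, 19 were tested and none passed in any of the comparisons (median 0.04 for deprivation and -0.16 for cell class). MAPK10 and MAPK9, which encode JUN N-terminal kinases, had deprivation differences of -0.33 ± 0.15 (SE, adjusted p = 0.390) and -0.25 ± 0.17 (SE, adjusted p = 0.599), and SRF, which drives the FOS promoter, -0.25 ± 0.30 (SE, adjusted p = 0.801). Of the 19 tested, 8 were below 0 in this comparison and 11 above 0, among them MAP3K5 (0.38) and MAP3K1 (0.32).

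The calls below stand beside shares of 0.063% for deprivation and 0.72% for cell class over all probe sets tested. Of 24 other immediate early genes, 13 were tested. KLF4 rose in deprived layers by 1.03 ± 0.17 (SE, limma, adjusted p = 0.0287) and no other gene of that list passed (median 0.15). EGR1, like FOS a marker of neuronal activity, fell by 1.15 on the log2 scale in magnocellular layers (SE 0.20, adjusted p = 0.015), while DUSP6, a phosphatase that switches off ERK kinases, rose by 1.20 ± 0.22 (SE, adjusted p = 0.0183) there (median of the list -0.17). Of 23 genes reported elsewhere as AP-1 targets, 15 were tested. HRK, a pro-apoptotic BCL2 family gene that can be induced through JUN in neurons, rose in deprived layers by 1.89 ± 0.25 (SE, adjusted p = 0.00857) and fell by 1.60 in magnocellular layers (SE 0.26, adjusted p = 0.00894). SPP1, which encodes osteopontin, rose in magnocellular layers by 0.78 ± 0.17 (SE, adjusted p = 0.0398), and the list medians were 0.07 for deprivation and -0.19 for cell class. No gene of these lists passed for hemisphere. The lists were chosen with earlier results of these data known, so the calls on HRK and KLF4 are descriptions and no test of AP-1. Whether JUN had a part in the HRK values was not tested.

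Many of the calls on listed genes and markers were lost under other settings. For deprivation, KLF4 passed in 6 of 25 alternative fits (log2 difference 0.90 to 1.12, adjusted p 0.0257 to 0.175), and HRK passed in 21 of 25 (1.69 to 2.12, adjusted p 0.000438 to 0.190). Neither passed without the cell class term, with median centring, with no filter or without deprived layer 6. For cell class, none of MAF, EGR1, DUSP6, HRK, SPP1, MBP and MAG passed with the ACTB ratio as a covariate (limma, adjusted p 0.343 to 0.9998), with no filter or without both arrays of high GAPDH ratio. Of 23 alternative fits, MAF passed in 6, SPP1 in 7, MBP in 9, EGR1 in 15, HRK and MAG in 16 each and DUSP6 in 17, and each of them kept its sign in all 23. The relay marker NEFM held best, passing in 20 of 23 (log2 difference 0.64 to 0.96). It did not pass with the ACTB ratio (limma, adjusted p = 0.857), with no filter or in non-deprived layers alone.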

How the data were processed

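Each array had a linear intensity for every probe set in the deposited table, already scaled between arrays by the authors, as the values show. The sources used here name neither the software nor detection calls. Of 22283 probe sets, 68 controls were left out. Of the rest, 19065 named 1 gene, 1043 several and 2107 none in the platform annotation, and all 8 family genes were in the macaque gene tables. Human probes can bind macaque RNA poorly, so levels were compared only within a probe set.

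Values below the floor (111) were raised to it, log2 was taken, and the 11108 probe sets with a mean log2 of at least 8.92 were tested. Tests were two-sided in limma 3.58.1 (R 4.3.3), with lmFit and a trended eBayes and with additive terms for deprivation, class and side (8 residual degrees of freedom), Benjamini-Hochberg adjustment over all probe sets tested and a threshold of 0.05. Each interaction was added to that fit. All family probe sets are named by rule, and the 3 genes of highest Pearson r for each member. The members and lists were chosen with earlier results of these data known. Alternatives were scaling, filter, floor, a pseudocount of 64, variance trend, covariates, layer block and leaving out arrays. The number of arrays limits the precision.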

Additional observations from a re-analysis of the deposited data

Results flagged for a closer look

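In 48 groups of 4 to 8 samples of the 8 probe sets above the low end, the highest and lowest sample were set against the others by Dixon's ratio, which chance exceeds in about 1 of 20 groups. FOSL2 218880_at was lowest in deprived layer 1, at 66.2, far from the other 5 contralateral samples, and without that array its cell class difference was -1.16 (limma, adjusted p = 0.342, over a range of 0.0397 to 0.9998 among alternatives). JUN 201464_x_at was lowest in non-deprived layer 2, at 2465, far from the other 3 magnocellular and the other 5 contralateral samples, and without that array its cell class difference was -0.51 (adjusted p = 0.311, over a range of 0.0632 to 0.9998) and its deprivation difference 0.16, against 0.31 with it.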

How the results depend on the processing

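Of 700 values of the 7 tested family probe sets under alternative settings, 666 kept their sign, 34 reversed and 2 passed the threshold, both for FOSL2 218880_at and cell class. JUN 213281_at stayed above 0 for deprivation in 25 of 25 alternatives (0.71 to 1.01, lowest adjusted p 0.084, without non-deprived layer 6). The check of pairing gave correlations of deviations between samples of the same layer number of -0.25 to 0.00. The deviations were taken from the deprived and non-deprived means, and both samples of a layer number came from opposite sides. A side difference thus enters these correlations, so they cannot show whether samples of a layer were alike. The samples were not treated as paired in the reported fit. With the layer number as a replicate block, 3 probe sets passed for deprivation and 8 for hemisphere, against 7 and 12 in the reported fit, and no family member did.

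For deprivation the count of all probe sets past the threshold was 0 without the cell class term, 2 with quantile normalization, 0 with median centring, 1 with no filter, 1 without the trend, 1 with the GAPDH ratio, 3 without both arrays of high GAPDH ratio, 4 in parvocellular layers alone, and 0 to 43 without single arrays (20 without deprived layer 5, 43 without non-deprived layer 6, 8 without deprived layer 3, and 0 to 3 without any other). For cell class it was 49 with quantile normalization, 31 with median centring, 24 with no filter, 41 without the trend, 4 with the ACTB ratio, 26 without both arrays of high GAPDH ratio, 2 in non-deprived layers alone, and 17 to 188 without single arrays (17 without deprived layer 1, 19 without non-deprived layer 2, 188 without non-deprived layer 6). For hemisphere it was 2 without the cell class term, 3 with quantile normalization, 56 with median centring, 4 without the floor, 0 with no filter, without the trend, with either ratio, without both arrays of high GAPDH ratio and in parvocellular layers alone, and 0 to 851 without single arrays (851 without non-deprived layer 6, at most 11 otherwise). The interaction with cell class gave 0 to 208 (208 without deprived layer 1) and that with hemisphere 0 to 3 (3 without deprived layer 2).

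Hemisphere values reversed for JUN 201464_x_at with median centring (-0.13), for JUN 201466_s_at with quantile normalization (-0.20), median centring (-0.27) and the ACTB ratio (-0.18), and for JUNB with quantile normalization (-0.048) and median centring (-0.10). The interaction with hemisphere reversed for JUN 201464_x_at with quantile normalization (0.078). Without single arrays, cell class values crossed 0 for JUN 201466_s_at (-0.40 to 0.064) and JUNB (-0.10 to 0.32), and the hemisphere value for JUN 201466_s_at (-0.10 to 0.23). The interaction with cell class crossed 0 for JUN 201464_x_at (-0.27 to 0.77) and JUND (-0.77 to 0.24), and that with hemisphere for FOSL2 218880_at (-0.61 to 0.36), JUN 201464_x_at (-0.36 to 0.27), JUN 213281_at (-0.56 to 0.0043) and JUNB (-0.48 to 0.25). None of these values passed the threshold in the reported fit, and the cause was not tested. Signal over background limits FOSB, FOSL1 and 5 further probe sets, whose means lie under 2 times the floor. Single values of some were well above it, up to 608.2 for FOSL2 205409_at and 494.8 for JUN 201465_s_at.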
